A study of Homo sapiens with 18 samples.

Results

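The response of MCF10A cells to the hsa-miR-708-5p mimic was described from 6 RNAseq libraries of the 18 in the series, namely the 3 treated with the mimic and the 3 treated with non-targeting siRNA (siNT). The libraries were chosen by cell line and treatment, and no measured value entered the choice. MCF10A is a near-normal human breast epithelial line, and all 9 of its libraries come from this 1 line. Each library is polyA+ RNA collected 72 h after transfection with a 30 nM mimic or siNT, so the control cells were transfected with a small RNA as well. Groups hold 3 biological replicates, numbered 7, 8 and 9. The 3 MCF10A libraries with the related hsa-miR-28-5p mimic share the siNT controls and are set beside hsa-miR-708-5p where they differ. Only 1 dose and 1 time were analysed.

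A microRNA mimic is a synthetic double-stranded RNA from which Argonaute proteins take up 1 strand. That strand pairs through its seed with matching stretches, mostly in the 3′ UTRs of mRNAs, and the paired mRNAs are translated less and decay faster. The type I interferon response works in another way. Receptors for interferon signal through JAK kinases and a complex of STAT factors with IRF9, which binds interferon-stimulated response elements in promoters and switches on antiviral effectors, antigen presentation genes and the pathway's own sensors and factors.

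The seed of hsa-miR-708-5p is shown first, since the results on 3′ UTR matches turn on it. The mature sequence (RefSeq, MIR708, GRCh38.p14, chr11:79402077-79402099, minus strand) is 23 bases long, and the capitals mark bases 2 to 8.
hsa-miR-708-5p: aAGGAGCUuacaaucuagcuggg
The letters of an mRNA that pair with it are AGCTCCTA for an 8mer, AGCTCCT for a 7mer-m8, GCTCCTA for a 7mer-A1 and GCTCCT for a 6mer. The next lines give the matches in the 3′ UTR of RPS28, a small subunit ribosomal protein gene that fell more than any other ribosomal protein gene, and an 8mer of each of the 6 genes with one that fell most, with the match in capitals (GENCODE 44, hg38, mRNA strand).
RPS28, 6mer, chr19:8322315-8322344: ctgtcacagtctGCTCCTtttttttgtccg
RPS28, 6mer, chr19:8322350-8322379: cgtaactgagatGCTCCTttaaataaagcg
TFCP2L1, 8mer, chr2:121219469-121219498: gaatcagccctAGCTCCTAactgggctgac
SLC37A4, 8mer, chr11:119024667-119024696: tagactccgttAGCTCCTAtttcctgcctt
PXK, 8mer, chr3:58425334-58425363: ccccatcagacAGCTCCTAgaaacattcct
AP2B1, 8mer, chr17:35725871-35725900: tgatggataacAGCTCCTAttctcagctga
GSTT2B, 8mer, chr22:23957493-23957522: aatatataaagAGCTCCTAcaaatcagtaa
PAQR4, 8mer, chr16:2972146-2972175: ttttccctccaAGCTCCTAttttactgtgt
The RPS28 matches lie in the last of its 4 exons, on the plus strand. Those of TFCP2L1, SLC37A4 and GSTT2B are read from the minus strand and the others from the plus strand. TFCP2L1 has 3 matches that are a 7mer or 8mer, of which the 8mer is shown.

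The table holds 15358 genes, and 14726 that reached a normalised read count of 10 in 3 or more of the 9 MCF10A libraries were tested. The siNT libraries held 24.2–30.2 M reads on genes and the hsa-miR-708-5p libraries 26.4–31.7 M, and 3 reads correspond to a value of 2.50–3.59 in these 6 libraries. A gene is called here when its limma p-value, adjusted by the Benjamini-Hochberg method over all genes tested, is below 0.05, and fold changes are on the log2(value + 1) scale with their standard error. All 12 mammary epithelial markers were detected in each of the 6 libraries, and none lay below a value of 841. They were not level between the groups, as 7 of the 12 fell and none rose, with a median of −0.68. The keratin KRT14 went from a mean of 35973 to 7456, KRT5 from 84082 to 44721 and the hyaluronan receptor CD44 from 25451 to 10342. Of the 8 leukocyte markers 4 are listed, and none of the 3 tested exceeded a value of 482, although CSF1R, a macrophage receptor, went from 50.3, 38.6 and 46.6 to 269.9, 243 and 273 (2.52 ± 0.20).

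With hsa-miR-708-5p, 4835 genes (32.8% of those tested) were called, 2286 higher (15.5%) and 2549 lower (17.3%) than with siNT. The count fell to 3174 without miR-708 replicate 9. The rises reached much further than the falls, as 272 genes rose by at least 4-fold while 60 fell by as much. Interferon genes made up 55 of those 272, although the 141 interferon genes tested are 0.957% of all genes. A gene low with siNT could pass the limit on low values through libraries of either mimic. A gene low with both mimics needed all 3 siNT libraries. With a limit of 50 in place of 10, 2056 genes were called higher and 2525 lower. The part of this limit in the 4-fold counts was not tested. The median change over all genes was −0.0047. If the libraries are scaled by their total instead of the deposited size factors, that median is 0.14 on the log2 scale and 67.6% of the called genes are higher in place of 47.3%, so directions of small size are relative to the scaling.

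**Figure D1:**
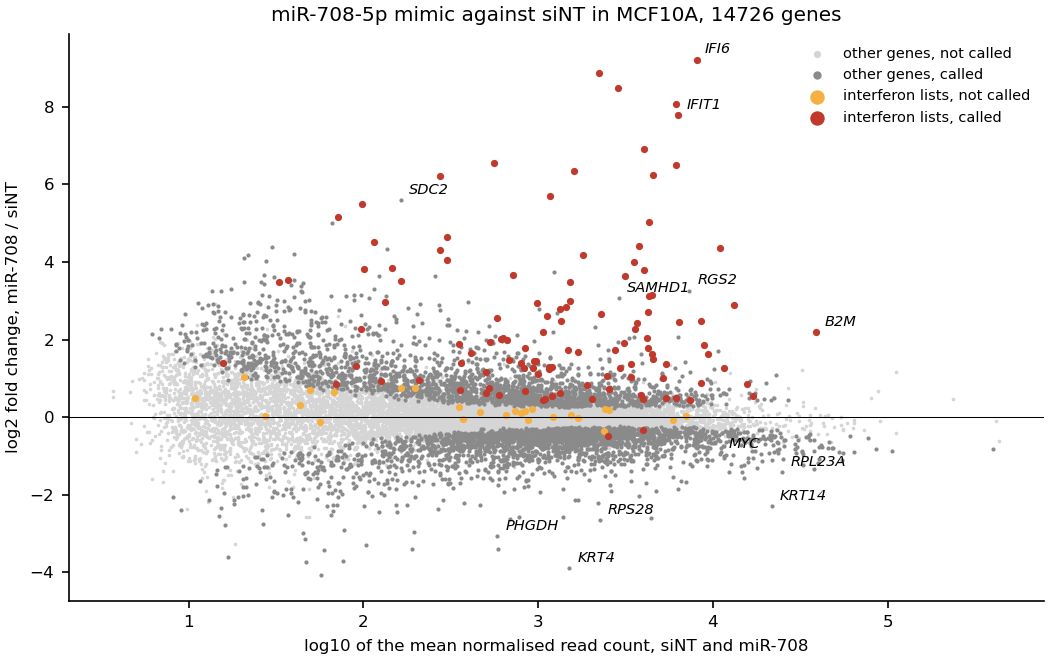
Fold change of each of the 14726 genes with hsa-miR-708-5p against siNT (vertical axis, log2) by its mean normalised read count in the 6 libraries (horizontal axis, log10). The interferon genes called (red) reach a log2 fold change of 9.22 for IFI6, above every other gene, while 2 interferon genes were called lower.

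Interferon genes held the largest rises in these cells. Of the 141 interferon genes tested, 113 rose and 2 fell, against 15.5% higher and 17.3% lower over all genes, and their median log2 fold change was 1.46. Among the antiviral effectors and other core interferon-stimulated genes, 71 of the 72 tested rose and none fell, with a median of 2.23. When any 1 library was left out, between 67 and 70 of them rose. Interferon genes together took up 0.639–0.667% of the summed normalised read counts with siNT and 1.79–2.79% with hsa-miR-708-5p.

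IFI6, an interferon-induced protein that limits the replication of flaviviruses, had normalised read counts of 28.7, 23.6 and 24.6 in the siNT libraries and 11899.7, 18122 and 18335 in the hsa-miR-708-5p libraries. MX1, a GTPase that traps viral nucleocapsids, went from 8.38, 7.50 and 9.13 to 3923, 5891 and 3504. These siNT values lie under the limit of 10 for testing. MX1 was tested because of libraries with a mimic, so a fall of it could hardly have been called. IFIT1, which binds viral RNA with foreign 5′ ends, went from 83.8, 39.6 and 47.5 to 8533, 16272 and 12825. For each of the 3 genes every library with the mimic lay far above every siNT library, and the groups did not come near each other. The log2 fold changes were 9.22 ± 0.54 for IFI6 (limma, Benjamini-Hochberg adjusted p = 1.6e-06), 8.86 ± 0.36 for MX1 (1.3e-07) and 7.78 ± 0.33 for IFIT1 (1.4e-07).

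The 9 other interferon genes with the largest rises belong to the same antiviral set. RSAD2 (viperin), which makes a chain-terminating nucleotide, rose by 8.48 ± 0.51 on the log2 scale, and CMPK2, the kinase that supplies it, by 6.21 ± 0.42. CMPK2 had 1 siNT library no higher than 3 reads. Its siNT mean of 7.29 lies under the limit of 10 for testing, so a fall of CMPK2 could hardly have been called. IFI27 rose by 8.08 ± 0.33 and OAS2 and OASL, of the oligoadenylate synthetase family, by 6.91 ± 0.33 and 6.35 ± 0.46. ISG15, a ubiquitin-like modifier, rose by 6.56 ± 0.51 and HERC5, its ligase, by 5.69 ± 0.36. IFIT3 and IFIT2, partners of IFIT1, rose by 6.50 ± 0.33 and 6.24 ± 0.37. Of these 12 genes, all but MX1 had their lowest value with the mimic in replicate 7, such as 2793 against 8047 and 6239 for RSAD2 and 618 against 1486 and 1226 for ISG15. Over the effector list the median difference from the siNT mean was 1.74 in replicate 7, 2.59 in replicate 8 and 2.31 in replicate 9 on the log2 scale. Replicate 7 was the deepest of the 3 libraries, at 31.7 M reads, and depth as a part of this difference was not tested.

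**Figure D2:**
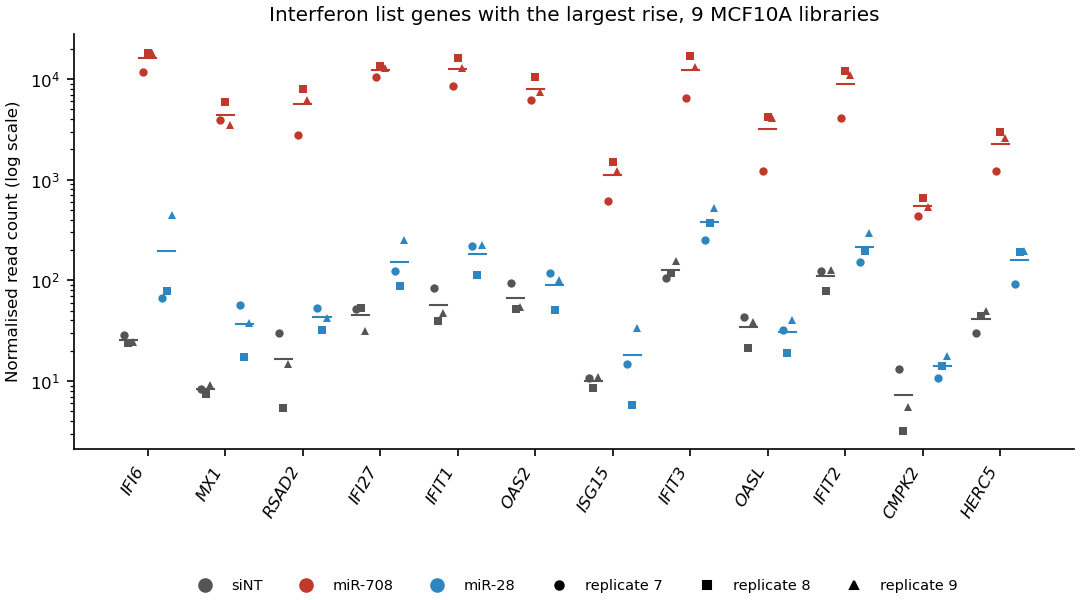
Normalised read counts (log scale) of the 12 interferon genes with the largest rise in the 9 MCF10A libraries, with a symbol per replicate and a line at each group mean. The hsa-miR-708-5p libraries (red) lie above all siNT (grey) and hsa-miR-28-5p (blue) libraries for every gene, with replicate 7 (circles) lowest of the red points in 11 of the 12.

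Several RNA sensors rose, and most of the adaptors and kinases that act after them did not pass the test. Of the 16 genes for RNA and DNA sensing, 8 rose and none fell, with a median of 0.37. DDX58 (RIG-I), a sensor of viral RNA ends, had 573, 504 and 483 with siNT and 4851, 9989 and 7819 with the mimic, a log2 fold change of 3.80 ± 0.20. IFIH1 (MDA5), a sensor of long double-stranded RNA, went from 1051, 787 and 809 to 6300.0, 9138 and 7651, by 3.12 ± 0.14. Their regulator DHX58, with 2 siNT libraries no higher than 3 reads, rose by 3.53 ± 0.51. Its siNT mean of 5.01 lies under the limit of 10 for testing, so a fall of DHX58 could hardly have been called. TLR3, the endosomal sensor, rose by 1.48 ± 0.23, and EIF2AK2 (PKR), the double-stranded RNA kinase, by 1.63 ± 0.13. TICAM1, the adaptor of TLR3, rose by 0.63 ± 0.15. The other 8 genes of the list did not pass the test, among them MAVS, the adaptor of DDX58 and IFIH1, with 6687, 5838 and 5697 with siNT and 5919, 6199 and 5234 with the mimic (−0.07 ± 0.11).

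Several factors that interferon receptors act through rose, and the type I receptor chains did not pass the test. Of the 19 genes for receptors, JAK-STAT and IRF factors, 8 rose, 10 did not pass the test and JAK1 fell (−0.32 ± 0.10), a call that was lost without siNT replicate 7 or 9, without miR-708 replicate 8 or 9, under library size scaling and without a trend of the spread with the level. IRF9, a DNA-binding part of the complex, had 207, 225 and 243 with siNT and 1322, 2039.5 and 1885 with the mimic, a log2 fold change of 2.93 ± 0.18 (limma, Benjamini-Hochberg adjusted p = 1.8e-06). Its groups lay far apart beside the spread within each. STAT2, its partner, rose by 1.90 ± 0.25, IRF7, which amplifies interferon production, by 3.83 ± 0.34 and IRF1 by 1.39 ± 0.19. IFNAR1 and IFNAR2, the type I interferon receptor chains, had values of 0.20 ± 0.08 and 0.11 ± 0.10. Of the 22 genes for interferons themselves only IFNE is listed, at 51.1–64.6 with siNT and 29.2–77.3 with the mimic, and the others were not analysed here.

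Antigen presentation through MHC class I rose almost as a whole, with 18 of 20 genes higher, TAPBP lower and a median of 1.30. B2M, the light chain of every class I molecule, had 12441, 15529 and 13994 with siNT and 53051, 69358 and 69499.5 with the mimic, a log2 fold change of 2.19 ± 0.17. HLA-B went from 704, 1145 and 886 to 5652, 9176 and 9493, by 3.14 ± 0.26. NLRC5, the class I transactivator, rose by 1.88 ± 0.23, and PSMB9 and PSMB8, the subunits that turn the proteasome into the immunoproteasome, by 2.97 ± 0.39 and 1.28 ± 0.17. In all these genes the mimic libraries lay above the siNT libraries. TAPBP (tapasin), which loads peptides, fell by 0.49 ± 0.13, a call lost without siNT replicate 9, without miR-708 replicate 9 and under library size scaling. HLA genes are polymorphic copies that share reads, so how their reads were divided among them is uncertain.

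MHC class II genes and interferon-induced chemokines started from low values. Of 5 class II genes tested, CIITA, the class II transactivator, CD74, the invariant chain, and HLA-DRA rose. CIITA had 186, 245 and 154 with siNT and 389, 892 and 627 with the mimic (1.64 ± 0.28). CD74 had 14.4, 48.5 and 14.7 with siNT and 113, 446 and 344 with the mimic (3.50 ± 0.59). Of 8 chemokine and cytokine genes 5 rose, among them CCL5 (5.17 ± 0.57), a chemokine for T cells, CXCL11 (3.48 ± 0.56) and TNFSF10 (2.05 ± 0.18), the death ligand TRAIL. CCL5 had 1.20, 2.14 and 6.39 with siNT and 95.9, 211 and 115 with the mimic, and 2 of its siNT libraries were no higher than 3 reads. CXCL11 was low as well, with a mean of 4.50 with siNT and 61.4 with the mimic. The siNT values of CCL5 and CXCL11 could not reach the limit on low values for testing. Both genes were tested because of libraries with a mimic, so a fall of either could hardly have been called. All 8 listed genes were tested, and 5 were also called without that limit. The chemokine count fell to 3 without siNT replicate 9 and to 1 without miR-708 replicate 8 or replicate 9. Of the 28 NF-kB and inflammatory genes, a list kept apart from interferon, 8 rose and 3 fell, and with the replicate number as a block 15 rose. LCN2, a siderophore-binding protein, was the largest rise there (2.32 ± 0.30) and CXCL5, a neutrophil chemokine, the largest fall (−1.63 ± 0.28).

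Most of the interferon response was larger with hsa-miR-708-5p than with the related mimic hsa-miR-28-5p, which shares the siNT controls. In the direct comparison of the mimics 228 genes (1.55%) differed, 189 higher with hsa-miR-708-5p (1.28% of those tested) and 39 lower. Of the 189, 88 were interferon genes, including 63 of the 72 effectors, and 101 were other genes. The effector median against siNT was 0.34 with hsa-miR-28-5p beside the 2.23 with hsa-miR-708-5p. OAS1, the oligoadenylate synthetase, was 3.36 higher on the log2 scale with hsa-miR-708-5p than with hsa-miR-28-5p. None of the 5 class II genes passed this test, and CIITA had 772, 1226 and 1027 with hsa-miR-28-5p, a difference of −0.72 (limma, Benjamini-Hochberg adjusted p = 0.25). Between the mimics 643 genes differed once the replicate number was fitted as a block, and the count was 112 without miR-708 replicate 9, 127 without replicate 8 and 368 without replicate 7.

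Other genes outside the lists moved with the interferon genes. Of the genes that were in no interferon list, 80 were higher with hsa-miR-708-5p than with siNT and also higher than with hsa-miR-28-5p. They include ETV7 (3.12), an ETS repressor, UBA7 (2.38), which activates ISG15, and CD274 (2.39), the checkpoint ligand PD-L1, with log2 fold changes against siNT in parentheses. ETV7, UBA7 and CD274 were chosen after their values were seen.

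The promoters of the interferon genes are shown because these genes moved together. The lists hold known interferon-stimulated genes, so letters of the response element among them are a description and no separate support. The stretch of GAAA, any 2 bases and GAAA again, which reads TTTC, any 2 bases and TTTC on the other strand, is the core of the interferon-stimulated response element. It was searched on both strands from 250 bases before to 50 bases after the start site in the RefSeq promoters (GRCh38.p14), which held 11257 of the genes tested. It occurred in 340 of them (3.02%). Among the antiviral effectors 36 of 57 promoters held it, among the class I genes 9 of 17, among the sensors 3 of 9 and among the receptor, JAK-STAT and IRF genes 1 of 15. Of the 80 other genes higher than with both siNT and hsa-miR-28-5p, 54 had a promoter and 9 held it (16.7%). Of the 1577 other genes that rose without being called higher than with hsa-miR-28-5p, 55 held it (3.49%). Of the 2056 other genes that fell, 43 did (2.09%). Windows around the first such stretch in the promoters of leading genes follow, in the direction of the gene and with the stretch in capitals.
IFI6, chr1:27672329-27672358: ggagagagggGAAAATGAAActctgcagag
MX1, chr21:41420559-41420588: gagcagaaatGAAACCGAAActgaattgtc
IFI27, chr14:94110618-94110647: atgtctgcagTTTCGGTTTCctggaaaatg
IFIT1, chr10:89392497-89392526: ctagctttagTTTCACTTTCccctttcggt
ISG15, chr1:1013374-1013403: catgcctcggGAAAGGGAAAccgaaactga
GCA, chr2:162318686-162318715: ctgactttggTTTCTGTTTCgattctcttc
IFI6 is on the minus strand and the others on the plus strand. The stretch lay in 7 of the 9 promoters found for the 12 interferon genes with the largest rise, with 3 copies each for IFI6 and HERC5, and in 3 of the 12 found for the 15 other genes that rose most. These matches describe letters only, and binding was not measured.

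Outside the interferon lists 2173 genes rose and 2547 fell of 14585. The 15 genes that rose most among the better expressed ones included adhesion, membrane and signalling genes. SDC2 (syndecan), a cell surface heparan sulfate proteoglycan, had 1.20, 6.43 and 13.7 with siNT and 173, 379 and 409 with hsa-miR-708-5p, a log2 fold change of 5.60 ± 0.70, with 1 siNT library below 3 reads. The siNT values 1.20 and 6.43 lie under the limit of 10 for testing, so a fall of SDC2 could hardly have been called. RGS2, which dampens G protein signalling, went from 1139.6, 1351 and 1503 to 8263, 15592 and 15899 (3.26 ± 0.24). SAMHD1, which degrades deoxynucleotides, went from 612, 679 and 543 to 4306, 6039.7 and 5188 (3.07 ± 0.14). In SDC2, RGS2 and SAMHD1 no mimic library came near the siNT range. The others that rose were the calcium-binding protein GCA (4.34), TRANK1 (3.75), the lysosomal glycoprotein GPNMB (3.64), the phospholipase PLAAT4 (3.63), the fructose transporter SLC2A5 (3.30), the galectin LGALS9 (3.12), S100A7A (3.07), CSMD3 (2.98), the long noncoding RNA LINC00963 (2.92), the kinases FYN (2.90) and MAPK4 (2.80) and the matrix protein POSTN (2.78). GCA, TRANK1, PLAAT4, RGS2, LGALS9 and SAMHD1 were higher than with hsa-miR-28-5p as well, as were 88 interferon genes, and the other 9 did not differ from it at this threshold. Whether the genes higher than with both other groups belong to the interferon response was not tested, and being outside the lists does not settle it. POSTN lost its call without siNT replicate 7 (2.34) and without miR-708 replicate 8 (2.48) or 9 (2.28). S100A7A has close copies, and the division of reads among them is uncertain.

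The 15 genes that fell most included keratins, metabolic enzymes and RPS28. KRT4 and KRT13, a keratin pair of mucosal epithelium, had log2 fold changes of −3.89 ± 0.31 and −3.40 ± 0.57, and KRT14, the basal keratin, one of −2.29 ± 0.18. KRT4 had 3079, 3434 and 1912 with siNT and 220.1, 208 and 135 with the mimic, and KRT14 had 32508, 42198 and 33214 with siNT and 9341, 7425 and 5602 with the mimic. The groups were far apart for both keratins. IMPDH1, which commits purines to guanine nucleotides, went from 1406, 1359 and 1223 to 298, 205 and 178 (−2.58 ± 0.23). SLC31A1, the copper importer, went from 2483, 1926 and 2690.4 to 626, 384 and 257 (−2.56 ± 0.26). The others were the kinase subunit CAMK2B (−3.41), the imprinted RNA H19 (−3.29), the serine synthesis enzyme PHGDH (−3.08), the kinesin KIF21B (−2.95), the cyclin CCNA1 (−2.62), the mitochondrial folate enzyme ALDH1L2 (−2.60), the protease TMPRSS15 (−2.45), the transporter MFSD3 (−2.45) and the cyclooxygenase PTGS1 (−2.36). None of the 15 differed between the mimics at this threshold. In bulk RNA, fewer cells expressing a gene and less RNA of it per cell cannot be told apart.

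**Figure D3:**
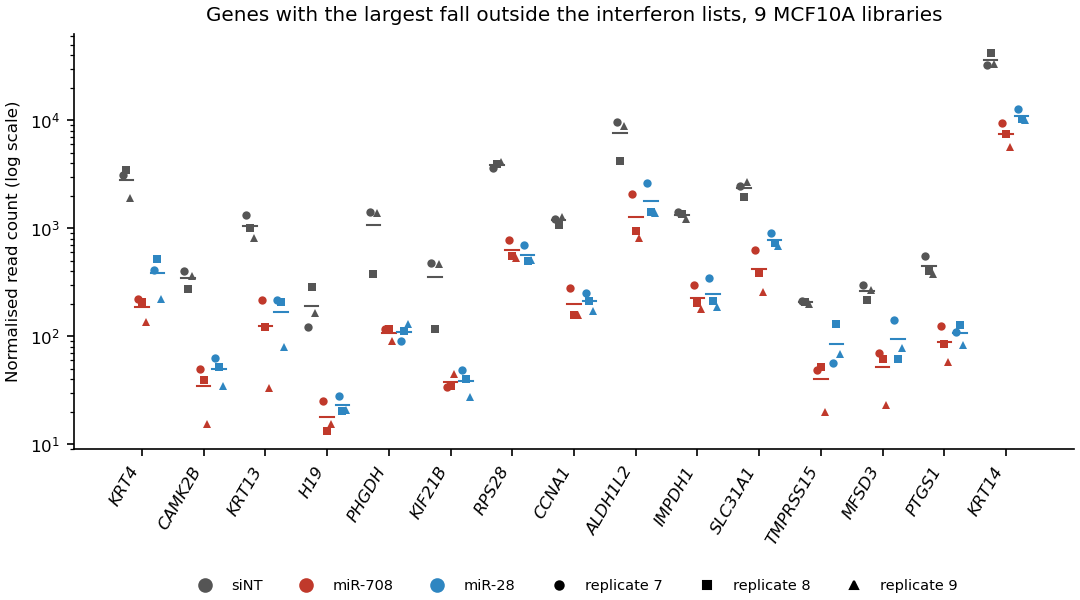
Normalised read counts (log scale) of the 15 genes outside the interferon lists that fell most, in the 9 MCF10A libraries, with a symbol per replicate and a line at each group mean. For every gene the hsa-miR-708-5p libraries (red) lie below all siNT libraries (grey), and for PHGDH, KIF21B and ALDH1L2 siNT replicate 8 (grey square) lies apart, below the other siNT libraries.

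RPS28 (chr19:8321496-8323340 on hg38) had 3589, 3959.6 and 4062 with siNT and 785, 554 and 532 with hsa-miR-708-5p. The mimic libraries held 16.1% of the siNT mean and did not overlap it. The log2 fold change was −2.65 ± 0.17 (limma, Benjamini-Hochberg adjusted p = 2.3e-06), and the exact two-sided permutation test over the 6 libraries gave p = 0.1, the smallest that 3 against 3 allows. RPS28 was the largest fall among ribosomal protein genes by a wide margin, the next being RPL23A (−1.42 ± 0.15), RPL3 (−1.17 ± 0.15), RPL4 (−1.12 ± 0.15), RPS25 (−1.12 ± 0.12) and RPS13 (−1.06 ± 0.13). Processed copies of ribosomal protein genes are common in the genome, and the division of reads among them is uncertain.

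Genes for ribosomes and translation fell together by moderate amounts. Of 34 small subunit protein genes 25 fell and 1 rose, with a median of −0.57, and of 50 large subunit genes 40 fell and none rose, with a median of −0.55, against 17.3% lower over all genes. Under library size scaling 18 small subunit and 28 large subunit genes fell, and leaving out siNT replicate 8 gave 18 and 29. The gene that rose, RPS27L, is a paralogue of RPS27 and went from 1843, 2371 and 2345 to 4277, 4271 and 4465 (1.0 ± 0.13). The ribosomal protein genes made up 6.64–7.84% of the summed values with siNT and 5.14–5.33% with hsa-miR-708-5p. Of 47 translation factors 23 fell and 1 rose, with a median of −0.34, led by EIF4EBP1 (−1.44 ± 0.20), which binds and inhibits the cap-binding factor, and EIF4B (−1.24 ± 0.13), a cofactor of the initiation helicase. Of 87 ribosome biogenesis factors 34 fell and 1 rose, with a median of −0.22, among them NOB1 (−0.99 ± 0.09), the nuclease that completes the small subunit RNA, and NPM1 (−0.81 ± 0.17), the abundant nucleolar chaperone. NPM1 had 103482, 114269 and 109549 with siNT and 75878, 57064 and 55274 with the mimic. The count of biogenesis factors was 18 without siNT replicate 8 or without miR-708 replicate 9, and 20 under library size scaling. Of 34 subunits and factors of RNA polymerases I and III, 8 fell (23.5%, near the 17.3% over all genes) and 2 rose. The falls were 5 without siNT replicate 7, without miR-708 replicate 8 or 9 and under library size scaling, and 15 without miR-708 replicate 7. Of 18 snoRNA host genes 7 fell (38.9%), SNHG7 most (−0.88 ± 0.14).

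Nuclear genes of mitochondrial complexes fell by smaller amounts or did not pass the test, apart from 1 that rose. Of 76 respiratory chain and ATP synthase genes 40 fell and none rose, with a median of −0.32, and of 76 mitochondrial ribosomal protein genes 29 fell and 1 rose, with a median of −0.24. ATP5F1A, the alpha subunit of ATP synthase, went from 21072, 21512 and 21925 to 12453, 9405 and 9514 (−1.05 ± 0.12). These small shifts depended on the scaling and on single libraries. Under library size scaling 14 respiratory genes and 18 mitochondrial ribosomal genes fell. The respiratory count was 17 without miR-708 replicate 8, 18 without siNT replicate 9, 20 without miR-708 replicate 9 and 23 without siNT replicate 8, and the mitochondrial ribosomal count was 18 without miR-708 replicate 8.

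MYC and part of the DNA replication genes fell, and more mitotic genes rose than fell. MYC, the growth-promoting transcription factor, had 12456, 15272 and 15877 with siNT and 7879, 7623 and 6922 with the mimic (−0.95 ± 0.12, limma, Benjamini-Hochberg adjusted p = 0.00019). Its partner MAX fell by 0.70 ± 0.11, and of the 30 genes of the MYC network 15 fell and 1 rose, with a median of −0.34. Of 50 DNA replication and S phase genes 16 fell, 34 did not pass the test and none rose, with a median of −0.26, among them RFC3 (−1.14 ± 0.18), a clamp loader subunit, CCNE1 (−1.08 ± 0.23), the cyclin of the G1 to S transition, and MCM6 (−0.83 ± 0.14), a subunit of the replicative helicase. Of 53 mitosis genes 13 rose (24.5%) and 5 fell (9.43%), against 15.5% higher and 17.3% lower over all genes. CKS2 (0.95 ± 0.13), a CDK-binding subunit, and CENPA (0.90 ± 0.14), the centromeric histone, were higher. MAD2L1 (−1.03 ± 0.20), a spindle checkpoint protein, and MKI67 (−0.64 ± 0.11), the proliferation antigen, were among the few that were lower. CDKN1B (p27), an inhibitor of CDKs, rose by 0.61 ± 0.10. CDKN1A (p21), another CDK inhibitor, overlapped between the groups, with 2898, 2523 and 2847 with siNT and 2609, 2522 and 2648 with the mimic (−0.09 ± 0.10, limma, Benjamini-Hochberg adjusted p = 0.55). The sign of CDKN1A turned under library size scaling, at 0.058. Its 3′ UTR holds a 7mer-m8 match. Without siNT replicate 8 or miR-708 replicate 9 the S phase count was 8 and the MYC network count 9, without miR-708 replicate 8 the S phase count was 10, and without siNT replicate 7 or 9 or miR-708 replicate 9 the mitosis genes that rose were 8. The mitosis genes that fell were 3 without siNT replicate 7. Under library size scaling 9 S phase genes and 9 MYC network genes fell and 23 mitosis genes rose.

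Most amino acid stress genes fell, with a few rises. Of 31 genes of the integrated stress response 21 fell and 3 rose, with a median of −0.89. The 21 include ASNS (−2.21 ± 0.45), which makes asparagine, SLC7A11 (−2.14 ± 0.39), the cystine importer, and TRIB3 (−1.94 ± 0.19), an inhibitor of AKT. The 3 that rose were the transcription factors ATF3 (2.07 ± 0.26) and DDIT3 (1.47 ± 0.31) and the phosphatase subunit PPP1R15A (0.98 ± 0.16). ATF3 had 102, 50.4 and 75.8 with siNT and 244, 350.3 and 350.3 with the mimic, and was also 1.33 higher than with hsa-miR-28-5p. In the serine, glycine and one-carbon list 8 of 15 fell and 1 rose. PHGDH, the first enzyme of serine synthesis, had 1415, 378 and 1390.4 with siNT and 117, 116 and 89.7 with the mimic (−3.08 ± 0.41). SHMT2, the mitochondrial serine enzyme, fell (−1.49 ± 0.12), as did MTHFD2 (−1.04 ± 0.17), which follows it.

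siNT replicate 8 stood apart from the other siNT libraries in these genes, as the 378 of PHGDH and the 1120.0 of ASNS beside 4749.7 and 5293 show. Its distance from the siNT mean over the stress response list was −0.36 in the median, against 0.19 and 0.17 for replicates 7 and 9. Without it the fall of PHGDH was −3.71, that of ASNS −2.93, that of SLC7A11 −2.72, that of KIF21B −3.62 and that of ALDH1L2 −2.97 on the log2 scale. CHAC1, a glutathione-degrading enzyme with 163, 15 and 159.8 in siNT, had 8.33, 3.83 and 6.68 with the mimic (−3.42 ± 0.78), and was under the limit on low values once that library was left out.

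Redox, lipid and sugar metabolism were lower in part. Of 27 NRF2 targets 16 fell and 3 rose, with a median of −0.47, and AKR1C2, a ketosteroid reductase, fell (−1.84 ± 0.18), as did PGD (−1.33 ± 0.16), of the pentose phosphate pathway, and GCLC (−1.15 ± 0.12), the rate-limiting enzyme of glutathione synthesis. HMOX1 (haem oxygenase) was among those that rose (1.62 ± 0.31). The summed values of the NRF2 list did not fall, at 267400–328660 with siNT and 317509–363163 with the mimic. Of 32 cholesterol and SREBP genes 15 fell and 3 rose, with a median of −0.39. SCD, the fatty acid desaturase, went from 61593, 53431 and 44450.2 to 33342, 17454 and 15864 (−1.33 ± 0.26), and SREBF1, the factor that drives it, fell by 1.02 ± 0.13. Without miR-708 replicate 9 the count was 9. Of 20 glycolysis genes 8 fell and 1 rose, among the falls ALDOC (−1.59 ± 0.18) and the glucose transporter SLC2A1 (−0.94 ± 0.15). Of 7 metallothioneins and their regulators 3 fell, MT2A (−1.66 ± 0.18) among them, and 2 rose, the zinc-sensing factor MTF1 (0.51 ± 0.09) and the zinc exporter SLC30A1 (0.53 ± 0.15), whose call was lost without siNT replicate 8 or 9. Lysosomal genes went the other way, with 17 of 42 higher and 4 lower. Among them the protease TPP1 rose by 1.08 ± 0.14, while the saposin precursor PSAP fell by 0.89 ± 0.11.

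**Figure D4:**
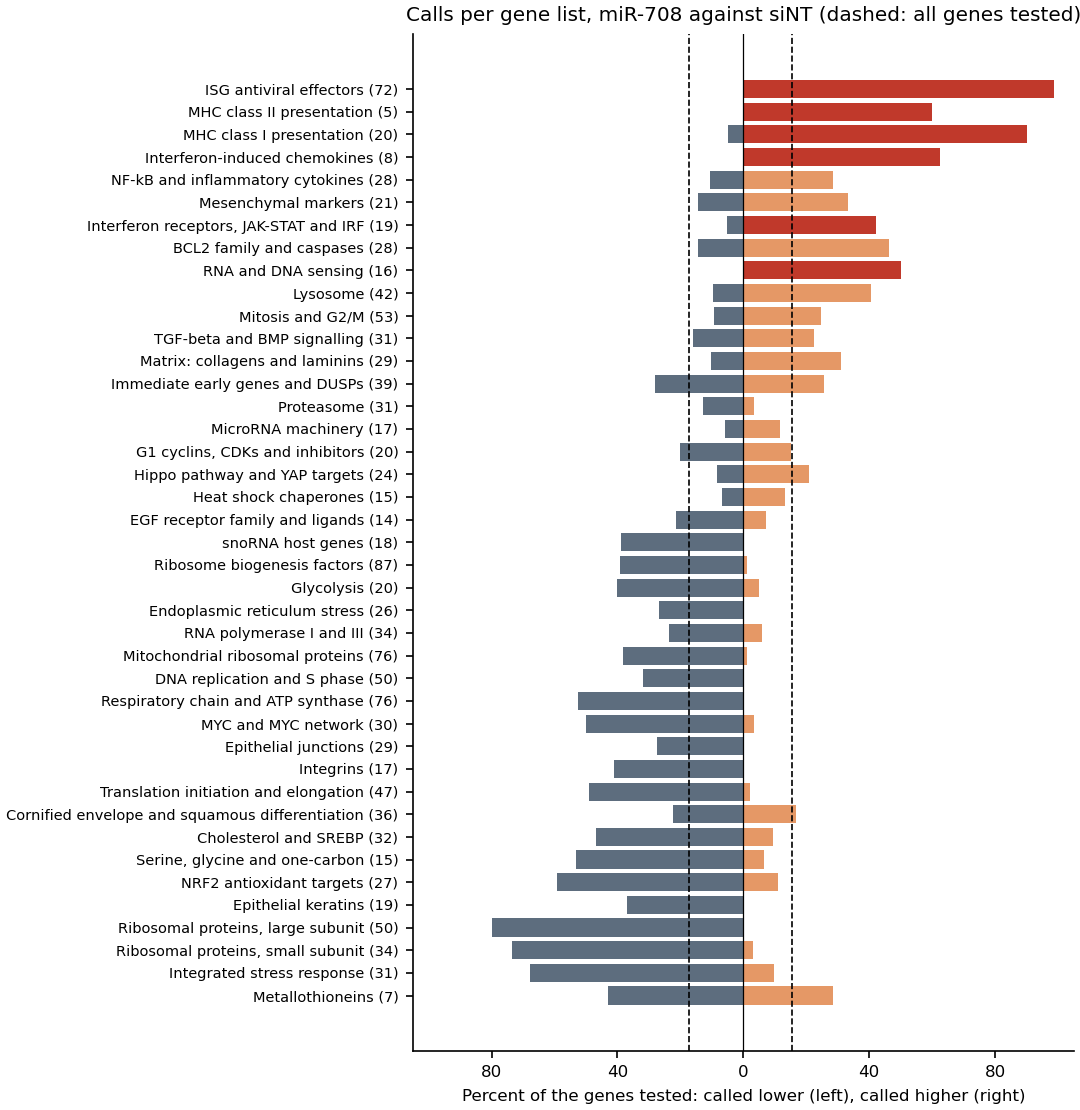
Percent of the tested genes of each list called higher (right of 0) or lower (left of 0) with hsa-miR-708-5p against siNT, ordered by median log2 fold change, with the number tested in parentheses and interferon lists in dark red. The dashed lines mark the share over all genes tested, 15.5% higher and 17.3% lower, and the antiviral effectors and class I genes extend furthest to the right while ribosomal proteins extend furthest to the left.

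Some epithelial genes fell, and some mesenchymal and matrix genes rose. Among the 7 mammary epithelial markers that fell was TP63 (−1.29 ± 0.21), the master factor of basal cells, and the summed values of all 12 markers were 247117–251205 with siNT and 119401–155683 with the mimic. Of 19 keratins 7 fell (36.8%, against 17.3% over all genes) and 12 did not pass the test, and with the replicate number as a block 12 fell. The count was 11 without miR-708 replicate 7. Of 29 junction genes 8 fell (27.6%) and 21 did not pass the test. The falls included GJB2 (−1.37 ± 0.15), a gap junction subunit, and PKP2 (−0.97 ± 0.11), a desmosomal plaque protein. The junction genes that fell were 15 with the block, 5 without siNT replicate 7 or miR-708 replicate 8, 4 without miR-708 replicate 9 and 5 under library size scaling. Of 17 integrins 7 fell (41.2%), ITGB6 most (−1.27 ± 0.23), and 4 integrins fell without siNT replicate 7 or 9 or miR-708 replicate 8.

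Of 36 genes of the cornified envelope 8 fell (22.2%) and 6 rose (16.7%), shares near those of all genes, and 14 fell with the block. TGM1, the crosslinking transglutaminase, fell (−1.91 ± 0.32), as did SPRR3 (−2.27 ± 0.33), while SPRR2E rose by 2.38 ± 0.29. SPRR2E belongs to a cluster of close copies. Of 21 mesenchymal markers 7 rose (33.3%) and 3 fell (14.3%), against 15.5% higher and 17.3% lower over all genes. Only 3 rose without siNT replicate 7 or miR-708 replicate 8 or 9, so the count that rose depended on single libraries. ZEB2, a repressor of epithelial genes, rose by 1.28 ± 0.31 and ACTA2, smooth muscle actin, by 1.11 ± 0.23, whereas MMP2, a gelatinase, fell by 2.27 ± 0.27. Of 29 collagens, laminins and matrix genes 9 rose (31.0%) and 3 fell (10.3%). FBN1 (fibrillin) had 218, 295 and 299 with siNT and 813, 1029.8 and 1862 with the mimic (2.11 ± 0.29). The matrix genes that rose were 5 without siNT replicate 8 or miR-708 replicate 8. Both fibroblast markers tested, DCN and COL1A1, rose beside these lists, and their summed values were 1492–3304 with siNT and 5467–14258 with the mimic. Whether other cells had a part in this was not tested.

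Signalling genes showed mixed directions. Of 39 immediate early genes and DUSP phosphatases 10 rose (25.6%) and 11 fell (28.2%), against 15.5% higher and 17.3% lower over all genes. EGR1, an early growth response factor, went from 2200.2, 2172 and 2830.1 to 809.7, 969.5 and 933 (−1.40 ± 0.16), and DUSP6 (−0.97 ± 0.10) and ETV4 (−1.43 ± 0.18), readouts of ERK activity, fell with it. EGR3, a relative of EGR1, went from 100.6, 55.7 and 88.6 to 14.2, 16.3 and 1.91 (−3.13 ± 0.59). EGFR (−0.65 ± 0.14) and its ligand HBEGF (−1.10 ± 0.18) fell. KLF4 (1.36 ± 0.19) and JUN (0.96 ± 0.10) rose. In the TGF-beta and BMP list 7 of 31 rose (22.6%) and 5 fell (16.1%, near the share of all genes). The BMP-responsive ID2 (1.97 ± 0.20) and ID3 (1.34 ± 0.12) were higher and LTBP1 (−1.23 ± 0.10), which stores latent TGF-beta, was lower. The 7 became 3 without siNT replicate 8 or miR-708 replicate 8 or 9, and 12 under library size scaling, and the 5 became 3 without siNT replicate 9 or miR-708 replicate 9. Of 28 BCL2 family genes and caspases 13 rose (46.4%) and 4 fell (14.3%), among the rises CASP8 (1.08 ± 0.14), an initiator caspase, and BAX (1.04 ± 0.13), a pore former of apoptosis. The 4 became 2 without siNT replicate 7 or miR-708 replicate 8 or 9. Of 17 genes of the microRNA machinery 2 rose (11.8%, no larger than the share of all genes) and AGO1, an Argonaute, fell, from 1569, 1498 and 1594 to 869.6, 687 and 718 (−1.04 ± 0.16). In that list 4 rose and 5 fell without miR-708 replicate 7, 1 rose without any other 1 library, and 4 rose and 2 fell with the block.

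The remaining lists lay nearer the background. Of 31 proteasome genes 4 fell and 1 rose, of 26 endoplasmic reticulum stress genes 7 fell, and of 24 Hippo pathway genes 5 rose and 2 fell. Of 15 heat shock chaperones 2 rose and 1 fell, but 4 fell without miR-708 replicate 7, none without any other 1 library and 3 with the block. Of 20 genes for G1 cyclins, CDKs and inhibitors 3 rose and 4 fell, and 1 rose without siNT replicate 7 or 9 or miR-708 replicate 9. Of 14 EGF receptor family genes 1 rose and 3 fell, with 3 rises without siNT replicate 7, 2 without miR-708 replicate 7, none without any other 1 library, and 4 rises and 4 falls with the block. Endoplasmic reticulum stress genes also had rises without siNT replicate 7 or 9 (1 each) or miR-708 replicate 7 (2), and 10 falls without the last. Under library size scaling 5 genes rose in each of the heat shock, G1 and microRNA machinery lists. PSMB2 (−1.38 ± 0.18) and PSMA5 (−1.14 ± 0.13), core proteasome subunits, were the largest falls among the proteasome genes. HYOU1, an endoplasmic reticulum chaperone, fell as well (−1.0 ± 0.12). The medians of several of these lists turned with the scaling, from −0.04 to 0.10 for the proteasome, −0.09 to 0.05 for the Hippo pathway, −0.07 to 0.08 for G1, −0.12 to 0.03 for heat shock, −0.12 to 0.02 for the EGF receptor family and −0.06 to 0.08 for the microRNA machinery under library size scaling. The Hippo genes that rose were 3 without siNT replicate 7 or 8 or miR-708 replicate 8 or 9. The proteasome genes that fell were 7 without miR-708 replicate 7 and 2 without any other 1 library but siNT replicate 7, and the G1 genes that fell were 2 without siNT replicate 9.

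Classes of genes defined by their symbols are given beside the 15.5% of all genes that rose and the 17.3% that fell. Of 465 zinc finger genes of the ZNF series 128 rose (27.5%) and 30 fell (6.45%), with a median of 0.27. Of 175 intergenic lncRNAs 39 rose (22.3%) and 7 fell, with a median of 0.38. Of 361 antisense lncRNAs 50 rose (13.9%, no larger than the share of all genes) and 14 fell (3.88%), with a median of 0.29. Of 46 TRIM ligases 13 rose (28.3%) and 8 fell (17.4%, near that of all genes). Of 66 Rab GTPases 12 rose (18.2%, near that of all genes) and 7 fell (10.6%). Among 30 histone genes 8 rose (26.7%) and 1 fell, and among 26 microRNA host genes 6 rose (23.1%) and 3 fell (11.5%). Among 31 kinesins 2 rose (6.45%) and 5 fell (16.1%, near that of all genes). Solute carriers went both ways, with 40 of 244 higher (16.4%, near that of all genes) and 57 lower (23.4%). Without miR-708 replicate 8 the zinc finger genes that rose were 82, the intergenic lncRNAs 24 and the antisense lncRNAs 24, and the antisense lncRNAs were 29 without siNT replicate 7 and 26 without miR-708 replicate 9. Fewer histone genes rose without miR-708 replicate 8 or 9 (4 each) or siNT replicate 7 (5), fewer Rab genes without miR-708 replicate 9 (5) or siNT replicate 9 (7), and fewer microRNA host genes without siNT replicate 7 or miR-708 replicate 8 or 9 (3 each). Among the falls, the antisense lncRNAs were 5 without siNT replicate 8 or 9, 7 without siNT replicate 7 and 8 without miR-708 replicate 9, the zinc finger genes 19 without siNT replicate 7, the intergenic lncRNAs 4 without siNT replicate 7 or miR-708 replicate 9, the TRIM genes 5 without siNT replicate 8 or miR-708 replicate 9, the Rab genes 4 without siNT replicate 7 or 9 or miR-708 replicate 8, and the microRNA host genes 1 without siNT replicate 7 or 9 or miR-708 replicate 7. Without any 1 library other than miR-708 replicate 7, 1 kinesin gene rose. Whether counting used strand is not given in the sources used here, so an antisense RNA and the gene it overlaps cannot be told apart.

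Genes with a match to the hsa-miR-708-5p seed in the 3′ UTR were lower than genes without one, and the difference was small. Of 12923 tested genes with an annotated 3′ UTR, 342 had an 8mer as their best match, 1789 a 7mer-m8, 431 a 7mer-A1, 2267 a 6mer and 8094 none. The share called lower was 33.6% with an 8mer, 27.2% with a 7mer-m8, 29.5% with a 7mer-A1, 21.2% with a 6mer and 15.4% without a match, and the median log2 fold changes were −0.19, −0.11, −0.14, −0.05 and 0.0053. The median of genes with a 7mer or 8mer differed from that of genes without a match by −0.14, −0.14 and −0.16 in hsa-miR-708-5p replicates 7, 8 and 9, measured from the siNT mean. Genes with 1 such site were lower in 26.1% of cases and genes with 2 in 37.5%, against 16.7% with none. The 144 genes with 3 or more were lower in 32.6%, under the share with 2. Matched genes had longer 3′ UTRs, with a median of 3382 bases for the 8mer class and 983.5 without a match. When genes were ranked by 3′ UTR length in 5 equal groups, the share called lower with a 7mer or 8mer was 39.3%, 28.5%, 32.3%, 29.7% and 25.5% from the shortest to the longest, beside 18.6%, 17.1%, 16.7%, 15.2% and 14.6% for the rest. Genes without a 3′ UTR match but with an 8mer in the coding sequence were called lower in 22.7% of 203 cases, against 13.0% of 4584 with no match in either. These shares describe genes, which are not replicates, and base composition as a part of them was not tested.

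**Figure D5:**
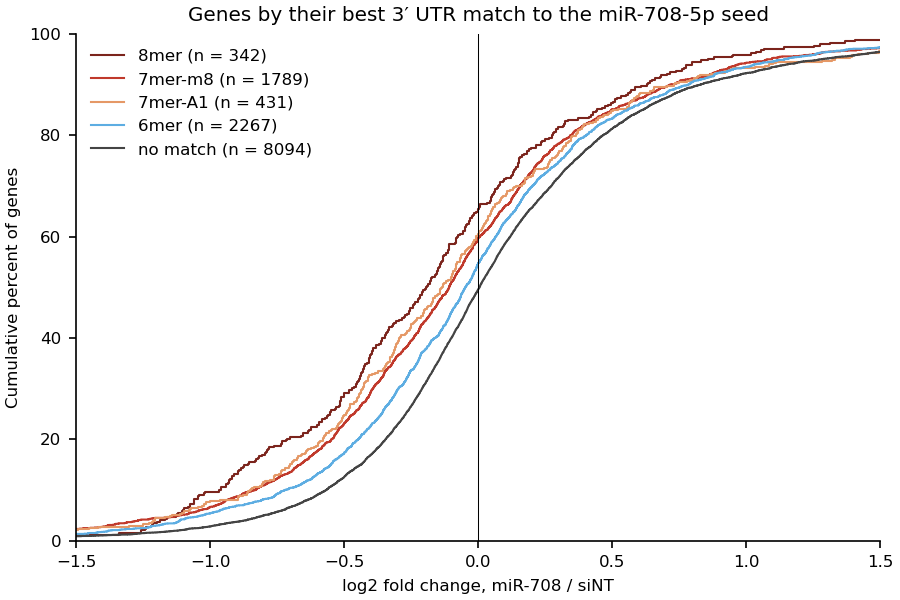
Cumulative percent of genes by their log2 fold change (hsa-miR-708-5p over siNT), in classes of the best 3′ UTR match to the seed. The curve of the 342 genes with an 8mer lies furthest to the left, with a median of −0.19, and that of the 8094 genes without a match furthest to the right.

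The 6 genes with an 8mer that fell most had moderate folds. TFCP2L1, a transcription factor of the grainyhead family, fell by 1.64 ± 0.28, with 13374, 7186 and 9277 with siNT and 4694, 2708 and 2312 with the mimic. SLC37A4, the glucose 6-phosphate transporter, went from 302, 369.6 and 330.5 to 107, 102 and 109 (−1.64 ± 0.20). PXK, a PX domain protein, went from 1423, 1035 and 1522 to 459, 405 and 409 (−1.63 ± 0.15). The mimic libraries lay below the siNT libraries in TFCP2L1, SLC37A4 and PXK. AP2B1, an adaptor subunit of clathrin coats, fell (−1.26 ± 0.17), as did PAQR4 (−1.22 ± 0.23) and GSTT2B (−1.26 ± 0.25), a glutathione transferase with a near-identical copy. None of these 6 differed between the mimics. Of the 15 genes that fell most outside the interferon lists, 3 had a 7mer (IMPDH1, SLC31A1 and ALDH1L2), 4 a 6mer, RPS28 among them, and 7 no match. Some genes with a match rose, as MX1, IFIT1 and OAS2 each have a 7mer-m8 match in the 3′ UTR.

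Few genes were lower with hsa-miR-708-5p than with both other groups. Of the 39 genes lower than with hsa-miR-28-5p, 27 were also lower than with siNT. ITGA10, an integrin chain, had the largest such difference. Its 3′ UTR holds an 8mer, and the study states that both mimics share the same seed. Any part of the match in the difference between the mimics was not tested. ITGA10 had 339, 360.0 and 546 with siNT, 189, 256 and 281 with hsa-miR-708-5p and 627, 653 and 787 with hsa-miR-28-5p. The log2 difference from hsa-miR-28-5p was −1.52 (limma, Benjamini-Hochberg adjusted p = 0.0018). The call of ITGA10 against siNT was lost without siNT replicate 9. ITGA10 was chosen after its values were seen.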

How the data were processed

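RNAseq of polyA+ RNA was analysed for 9 MCF10A libraries, 3 each with siNT or either mimic, and the RPE-1 libraries were not used here. Per the labels and the methods of the study, the authors trimmed reads, aligned them to hg38 with HISAT2 2.1.0, estimated reads per RefSeq gene in Partek by expectation maximisation and used DESeq2 for their comparisons. The deposited signal holds estimated reads scaled per library by a size factor, as the median ratio of each library to the geometric mean over libraries was equal in all 9. It is not a raw count, so limma was used in place of a count model. The deposited columns of the authors' own comparisons (p-values, ratios and fold changes) were not used. Of low values, 80.3–84.0% lay within 0.05 of a whole number of reads, taking the common step of a library as 1 read, and this step gave the depth of 19.4–31.7 M reads. Counting error alone is covered by the floors of 3 reads.

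Values were taken as log2(value + 1). Genes with at least 10 in at least 3 libraries were fitted in limma 3.58.1 (R 4.3.3) over the 3 groups with a trend, and called at a Benjamini-Hochberg adjusted p below 0.05. Deviations of siNT and hsa-miR-708-5p libraries with the same number correlated (r = 0.30, 0.11 and 0.16 across genes for replicates 7, 8 and 9), so the numbers were taken to pair the libraries, and a fit with the number as a block was an alternative. The study calls the libraries biological triplicates, and p-values measure the spread between these libraries. Tables were made with Python 3.11.15, pandas 2.3.3, numpy 2.4.6, scipy 1.17.1 and matplotlib 3.10.9, and the fit was tested on simulated data. Seed matches were searched in the 3′ UTR of the longest coding transcript of each gene in GENCODE 44, and promoters were those of RefSeq. Genes named are RPS28, MYC and CDKN1A, then, among genes called with a mean of at least 100 and groups that do not overlap, the 12 interferon genes with the largest rise, the 15 other genes with the largest rise and the 15 with the largest fall, the 6 genes with an 8mer that fell most, and members of the gene lists. A few genes and 1 list are not reported here. The comparison and the gene lists were chosen with earlier results of these data known. Alternatives changed the pseudocount, the limit on low values, the scaling, the libraries in the fit, the trend, the block, the fold limit, the interferon genes, the 3′ UTR set and each library in turn.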

Additional observations from a re-analysis of the deposited data

How the results depend on the processing

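Of the counts for 41 gene lists, 23 moved by over 1.5 times under at least 1 alternative. Leaving out 1 library at a time gave 3174–5483 genes called, 1474–2579 higher, 1700–2904 lower, 101–113 interferon genes higher and 112–368 genes that differed between the mimics. With a 2-fold limit added 1403 genes were called, and 1619 were lower under library size scaling. The difference between the mimics was 150 genes without a trend, 643 with the replicate block and 83 with the interferon genes left out, where fewer genes are tested by construction. The cause of the other changes was not tested. The difference of medians between genes with a 7mer or 8mer and genes without a match was −0.13, lay between −0.14 and −0.13 without 1 library and was −0.12 over the 3′ UTRs of all coding transcripts. With the replicate block 5818 genes were called against siNT, 2819 higher and 2999 lower, and the block changed no call of a gene named. Under library size scaling the signs of CDKN1A (0.058), MAVS (0.073) and IFNE (0.017) turned, and without 1 library MAVS lay up to 0.00060 (without siNT replicate 7) and IFNE between −0.41 and 0.28, none of which was called. Of 2524 values of 161 named genes under the alternatives, 2493 kept their direction and their side of the threshold, and JAK1, TAPBP, POSTN, SLC30A1, ITGA10 and KRT17 lost a call under at least 1 of them. With 24.2–31.7 M reads in the 6 libraries, genes near a value of 3 reads (2.50–3.59) could not be told from 0.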
